A study of Bos grunniens and Bos grunniens x Bos taurus with 12 samples.

Results

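Testes of 3 cattle–yaks were compared with testes of 3 yaks in the Ribo-seq data of a study on yak testicular development, which holds 12 libraries in all. The 6 libraries were chosen by their labels, which give an age of 4 years for both groups. The other 6 libraries come from younger yaks, 3 of 6 months and 3 of 18 months. Ribo-seq sequences the mRNA fragments that translating ribosomes protect from nuclease, so that the number of fragments on a gene measures its translation level. The cattle–yaks were the F1 hybrid of a Jersey bull and a Gannan yak cow, and their testes were obtained by castration. The yaks were Gannan yaks whose testes were taken after euthanasia, although the labels name castration for every sample, so the mode of sampling cannot be told apart from the genotype. The paper states the age of the yaks, whereas the age of the cattle–yaks comes from the labels. Each library came from testis tissue of 1 animal, with no cell type sorted. Reads of both groups were aligned by the authors to the yak genome, and how the cattle alleles of the hybrid affected that alignment was not tested.

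In the adult testis, spermatogonia enter meiosis as spermatocytes and give rise to round and then elongating spermatids, which replace their histones with transition proteins and protamines and build the acrosome and the flagellum. Because transcription stops during chromatin condensation, much of the mRNA of spermatids is stored and translated later. Male F1 hybrids of cattle and yak are sterile, with spermatogenesis that does not reach mature sperm, while Sertoli, Leydig and peritubular cells are present. In bulk tissue, fewer cells of a type and less RNA per cell cannot be told apart.

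Of 20965 genes in the table, 16498 had enough counts to be tested. With edgeR's quasi-likelihood test and Benjamini-Hochberg adjustment, 7267 genes (44% of those tested) were differentially translated genes (DTGs), for which the adjusted p lay under 0.05 and translation levels differed by 1 or more on the log2 scale. In cattle–yak, 2814 DTGs (17.1%) were higher and 4453 (27%) were lower than in yak. The directions differed in size. Among the lower DTGs the median log2 fold change was -2.61 and 691 genes fell by 6 or more on the log2 scale, whereas among the higher DTGs the median was 1.44 and 43 genes reached 6. Changes below 2 on the log2 scale made up 80.8% of the higher and 34.2% of the lower DTGs. Over all genes tested the median log2 fold change was -0.00. For 71.4% of the genes tested the values of the groups did not overlap, 34.9% with higher and 36.5% with lower values in cattle–yak, and these shares are the background for the gene lists below.

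The lower DTGs took 33.8%, 30.6% and 31.8% of all counts in yak and 5.20%, 4.42% and 4.57% in cattle–yak. The higher DTGs took 11.4%, 11.7% and 11.2% in yak and 31.7%, 32.7% and 31.5% in cattle–yak. These genes were chosen on the same counts, so the shares describe how the footprints were spent and are no test. The concentration of footprints on few genes was compared separately. The 10 genes with the most counts held 9.40% ± 1.09 (SD, n = 3) of the counts in yak and 7.37% ± 0.243 in cattle–yak, without overlap. The 100 genes with the most held 23.2% ± 1.24 and 22.4% ± 0.642, with overlap, and the 1000 genes with the most held 53.4% ± 0.867 and 55.5% ± 0.426, without overlap. The exact two-sided permutation test over the libraries gave p = 0.4 for the 100 genes and p = 0.1 for the 10 and the 1000 genes, the smallest value that 3 against 3 libraries allow. Total counts were 16304058 to 17862516 per yak library and 38437889 to 52616039 per cattle–yak library, so the cattle–yak libraries counted low genes with less error.

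Cell type markers were summed per library as CPM, counts relative to the TMM-scaled library total, a scale on which levels of the same gene or list can be compared between libraries. Markers of elongating spermatids summed to 8519, 6484 and 7624 CPM in yak and to 407, 222 and 236 CPM in cattle–yak, and all 15 markers tested were lower DTGs. Markers of round spermatids summed to 3005 to 4007 CPM in yak and 118 to 129 CPM in cattle–yak, with 15 of 16 lower. The exception was *LYZL6*, at 118, 98.4 and 90.4 CPM in yak and 102, 100 and 103 CPM in cattle–yak. *LYZL6* alone made up most of the cattle–yak sum. Spermatocyte markers summed to 2684 to 2824 CPM in yak and 813 to 1310 CPM in cattle–yak. Of 15 tested, 8 were lower and none was higher. Among these, *CCNA1*, a cyclin of late meiotic prophase, had a log2 fold change of -4.50 ± 0.18 (SE), whereas *SYCP3*, a component of the synaptonemal complex, had 0.70 ± 0.24 and was not a DTG. Cattle–yak replicate 1 had the highest sum of elongating spermatid and spermatocyte markers in its group.

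Spermatogonial markers summed to 674 to 850 CPM in yak and 1411 to 1540 CPM in cattle–yak, with 5 of 14 higher and 2 lower. Sertoli cell markers summed to 9108 to 12931 CPM and 17557 to 20057 CPM, with 7 of 18 higher, or 11 without yak replicate 2. One Sertoli marker fell, *HSD17B1*, which encodes a 17β-hydroxysteroid dehydrogenase, from 93.2, 110 and 87.4 CPM to 0.862, 0.0776 and 0.128 CPM. Of the markers of peritubular myoid cells 15 of 16 were higher, and their sum was 721 to 781 CPM in yak and 2146 to 3061 CPM in cattle–yak. Fibroblast markers were higher in 11 of 14, with sums of 651 to 837 CPM and 2070 to 3384 CPM. Leydig cell markers were higher in 6 of 12 (50%) and lower in none, their median was 1.04 on the log2 scale, and they summed to 6876 to 10171 CPM and 10810 to 12210 CPM. Endothelial markers were higher in 4 of 16 (25%, against 17.1% of all genes) and lower in 1, with a median of 0.74. Only 2 were higher without cattle–yak replicate 2 or without yak replicate 3. Their sums of 100 to 130 CPM and 106 to 139 CPM overlapped, but *VWF*, the lower one, made up much of the yak sum, and without it the sums were 63.9 to 75.5 CPM and 100.5 to 127 CPM, without overlap. Macrophage markers (507 to 852 CPM and 548 to 772 CPM) overlapped. Markers of the rete testis and epididymal epithelium were lower in 2 of 4 tested, with sums of 472 to 571 CPM and 194 to 283 CPM. That difference was carried by *EPCAM*, an epithelial adhesion molecule, without which the sums were 2.93 to 8.01 CPM and 1.499 to 4.88 CPM and overlapped. No marker of germ cells or of Sertoli, Leydig, myoid, endothelial or fibroblast cells was at 0 counts in all 3 libraries of either group. The part of these shifts in tissue composition in the results below was not tested.

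**Figure D1:**
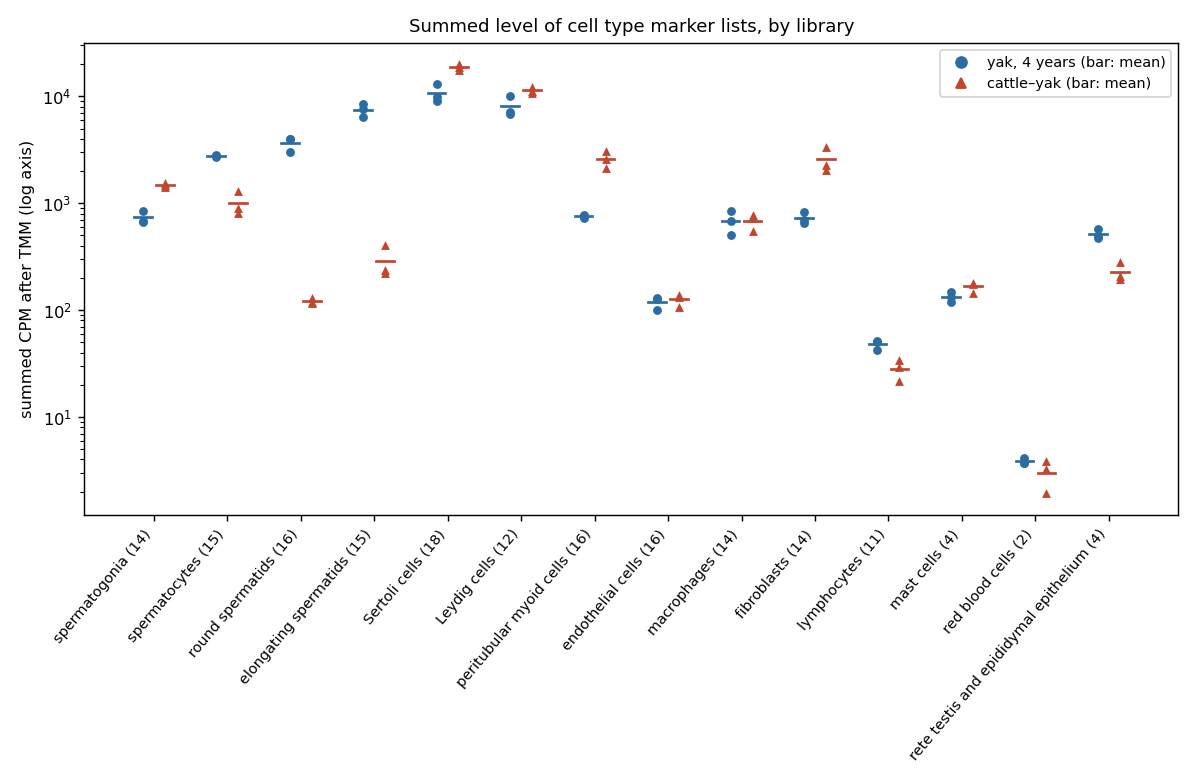
Summed translation level of each cell type marker list in each library, as CPM after TMM scaling on a log axis, with the number of markers tested in brackets, points for libraries and bars for group means. The 3 cattle–yak libraries lie below the yak libraries for spermatocytes, both spermatid stages, lymphocytes and rete testis with epididymal epithelium, and above them for spermatogonia, Sertoli, Leydig, peritubular myoid and fibroblast markers.

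Functions were then described through 21 gene lists, ordered by their median. The lowest medians of log2 fold change belonged to the testis ADAMs and serine proteases (-6.67), sperm ion transport (-4.51) and spermatid chromatin packaging (-3.16). Medians near that of all genes belonged to nuclear transport (-0.03), polyamines (0.10) and phosphagen and adenylate kinases (0.12), although these lists held both large decreases and clear increases. The highest medians belonged to the interferon response (1.14), immediate early genes (1.06), cell cycle inhibitors with growth arrest genes (0.89) and collagens (0.78).

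**Figure D2:**
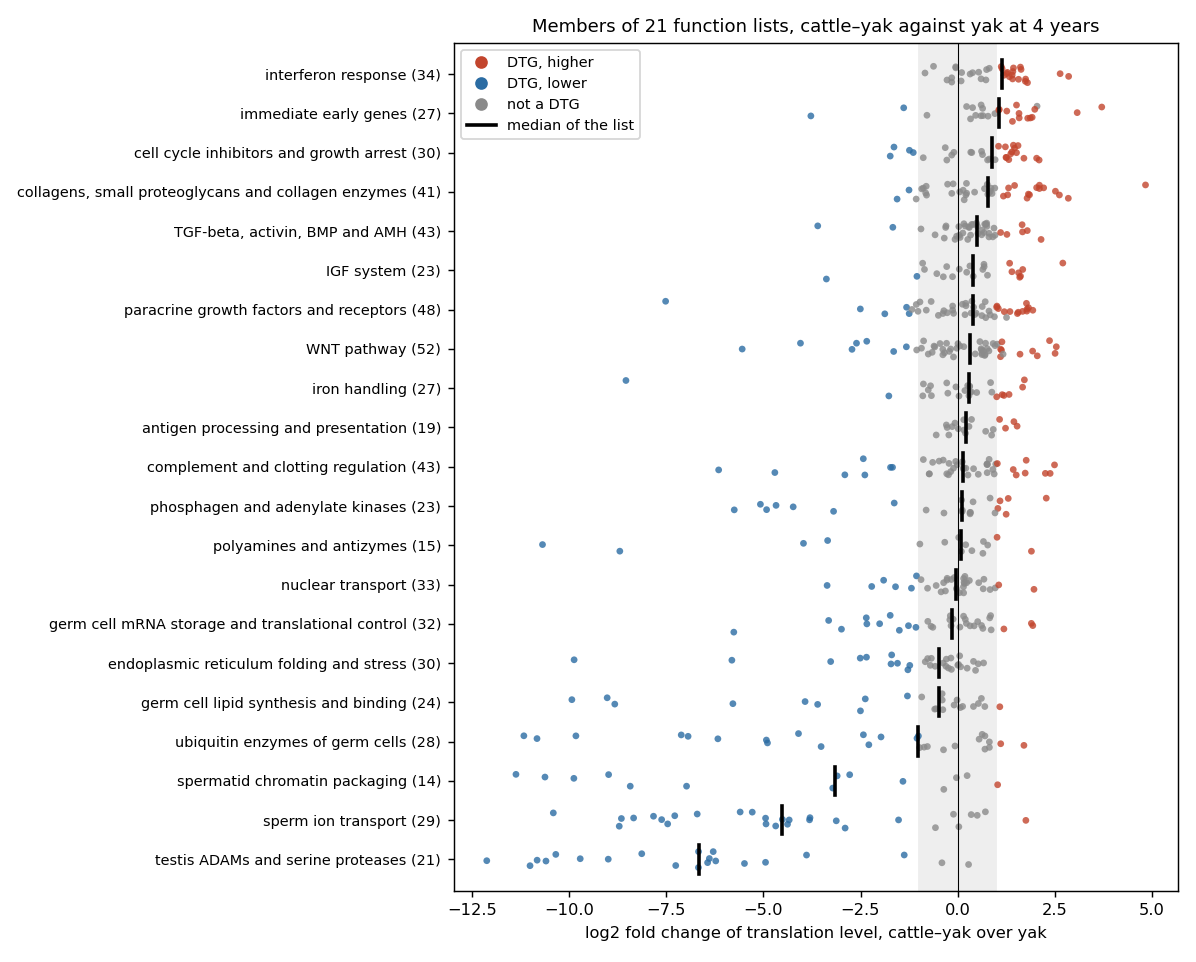
Log2 fold change of translation level, cattle–yak over yak, for each tested member of 21 function lists (number tested in brackets), ordered by the list's median (black bar). Colours mark higher DTGs, lower DTGs and genes that were not DTGs, and the grey band spans fold changes below the threshold; the left tails reach beyond -10 while only 1 gene, *PLOD2*, lies above 4.

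Proteins that pack spermatid chromatin were among the most reduced. Of 14 members tested, 10 were lower (71.4%, against 27% of all genes) and 1 was higher. *PRM2*, a protamine that replaces histones in the sperm nucleus, had 661, 509 and 498 CPM in yak and 0.431, 0.129 and 0 CPM in cattle–yak. *TNP1* and *TNP2* encode the transition proteins that precede protamines. *TNP1* had 1976, 1360 and 1963 CPM in yak and 4.78, 0.569 and 0 CPM in cattle–yak, and *TNP2* had 2230, 1431 and 1752 CPM and 2.82, 0.310 and 0.0767 CPM. Each yak library was far above each cattle–yak library. The log2 fold changes were -11.38 ± 0.60 (adjusted p = 1.98e-06) for *PRM2*, -9.89 ± 1.23 for *TNP1* and -10.63 ± 1.04 for *TNP2*. Cattle–yak replicate 1 held most of the residual counts, and without it these values were -12.97, -12.58 and -13.15.

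Factors that act before the transition proteins fell by smaller amounts. *CHD5*, a chromatin remodeller of spermatids, had 531, 524 and 492 CPM in yak and 5.07, 4.29 and 2.81 CPM in cattle–yak. *BRDT*, a bromodomain protein that binds acetylated histones in spermatocytes and spermatids, had 131, 111 and 132 CPM and 22.9, 10.8 and 9.76 CPM, a log2 fold change of -3.10 ± 0.32. *PSME4*, the PA200 activator of proteasomes that degrade acetylated histones, remained at 192, 172 and 167 CPM against 454, 464 and 488 CPM in yak, which was 2.65-fold lower. The histone ubiquitin ligase *RNF8* (log2 fold change -0.35) and *CTCFL* (0.25), a paralogue of CTCF in male germ cells, were not DTGs. The higher member was *PYGO2*, a reader of histone methylation (1.03 ± 0.21), and it lost the call without cattle–yak replicate 2, without yak replicate 3 and under 2 other alternatives. Without cattle–yak replicate 1 the median of the list was -3.89 in place of -3.16.

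Sperm proteases and ADAM proteins showed the largest share of lower DTGs of any function list, 19 of 21 tested (90.5%), and none was higher. *ADAM2*, the β subunit of fertilin on the sperm surface, had 2269, 1698 and 2290 CPM in yak and 43.7, 18.4 and 9.76 CPM in cattle–yak. *PRSS37*, a serine protease-like protein that is needed for the processing of ADAM proteins, had 1068, 686 and 818 CPM and 1.67, 0.103 and 0.0256 CPM. *ACR*, the acrosomal protease acrosin, had 411, 472 and 339 CPM and 1.43, 0.569 and 0.281 CPM. Again no cattle–yak library approached a yak library. The log2 fold changes were -6.44 ± 0.58 for *ADAM2*, -10.35 ± 0.97 for *PRSS37* and -9.001 ± 0.51 for *ACR*, and without cattle–yak replicate 1 they were -7.20, -13.59 and -9.89. The protease inhibitor *SERPINA5* moved apart from the proteases. Its level was 1224, 1690 and 1109 CPM in yak and 1533, 1740 and 1629 CPM in cattle–yak, with overlap and a log2 fold change of 0.29 ± 0.17 (adjusted p = 0.183).

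Ion transporters and channels of sperm were lower in 22 of 29 members tested (75.9%). *ATP1A4*, the sodium pump subunit of sperm, had 433, 347 and 275 CPM in yak and 2.55, 2.30 and 1.05 CPM in cattle–yak. *SLC9C1*, the sperm sodium–proton exchanger, had 252, 181 and 254 CPM and 2.90, 0.646 and 0.690 CPM, and its log2 fold change of -7.29 ± 0.58 was -8.41 without cattle–yak replicate 1. Both partners of the sperm potassium channel were low in cattle–yak. The pore subunit *KCNU1* had 18.0, 21.1 and 21.7 CPM in yak and 0.627, 0.776 and 0.562 CPM in cattle–yak, and its auxiliary subunit *LRRC52* had 25.5, 26.1 and 29.4 CPM in yak and 0, 2 and 0 counts in cattle–yak. Some members that other tissues also use did not pass the threshold. The proton channel *HVCN1* (0.51), the chloride transporter *CLCN3* (0.03) and the plasma membrane calcium pump *ATP2B4* (0.72) were not DTGs, and a further calcium pump, *ATP2B2*, was the single member that rose, by 1.76 on the log2 scale.

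Regulators of stored mRNA were divided. Of 32 tested, 10 were lower (31.2%, near the 27% of all genes), 3 were higher (9.38%, against 17.1%) and 19 were not DTGs. Their median of -0.14 was near that of all genes. *YBX2*, the germ cell Y-box protein that binds and stores mRNA, had 620, 455 and 613 CPM in yak and 14.3, 10.1 and 6.57 CPM in cattle–yak, with a log2 fold change of -5.77 ± 0.32. *DDX25*, a helicase that exports and stores mRNA in spermatids, had 906, 856 and 946 CPM and 149, 93.7 and 97.8 CPM. *PABPC1*, the main cytoplasmic poly(A)-binding protein, had 453, 415 and 525 CPM and 171, 124 and 124 CPM, 3.33-fold lower. The groups of each gene were apart. *DAZL* (-0.20), *PUM2* (0.32) and *CPEB1* (0.62), which act from spermatogonia or early meiosis onwards, were not DTGs. The 3 higher members were *MSI1*, an RNA-binding protein of stem and Sertoli cells, with 22.8, 25.6 and 33.9 CPM in yak and 106, 120 and 90.0 CPM in cattle–yak, *CAPRIN2* (1.90 ± 0.22) and the spermatogonial regulator *NANOS3* (1.195 ± 0.24).

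Ubiquitin enzymes of germ cells were lower in 15 of 28 members tested (53.6%) and higher in 2. *TRIM36*, a ubiquitin ligase of the acrosome, had 710, 592 and 799 CPM in yak and 6.60, 4.11 and 4.32 CPM in cattle–yak. *RNF151*, a RING finger protein of the acrosome, had 147.9, 126 and 128 CPM and 0.157, 0.0259 and 0 CPM. The widely expressed *UBE2B* (-0.06), *CUL3* (-0.78), *CUL4A* (0.56) and *HUWE1* (0.82) were not DTGs. *ASB9*, a substrate receptor that binds creatine kinase, rose from 92.1, 94.2 and 70.8 CPM to 264, 285 and 293 CPM, and the deubiquitinase *UCHL3* from 55.7, 44.8 and 56.4 CPM to 114, 128 and 97.1 CPM.

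The endoplasmic reticulum had no higher DTG among 30 folding and stress genes tested, against 17.1% of all genes. Of the 30, 10 were lower (33.3%, near the 27% of all genes) and 20 were not DTGs. Its largest decreases were those of the testis chaperones of sperm surface proteins. *CALR3*, the germ cell calreticulin, had 3381, 2823 and 2668 CPM in yak and 82.5, 37.3 and 37.6 CPM in cattle–yak. *PDILT*, a disulphide isomerase-like protein that works with calmegin, had 1111, 1154 and 903 CPM and 2.47, 0.646 and 0.0767 CPM, and *CLGN*, calmegin itself, had 4896, 4237 and 5429 CPM and 541, 532 and 438 CPM. The order of the decreases was -9.88 ± 0.86 for *PDILT* (-11.49 without cattle–yak replicate 1), -5.81 ± 0.37 for *CALR3* and -3.27 ± 0.16 for *CLGN*. Some widely expressed genes of the same compartment also fell. *XBP1*, the transcription factor of the unfolded protein response, had 410, 338 and 367 CPM in yak and 67.9, 68.8 and 59.5 CPM in cattle–yak, *HYOU1*, a chaperone of the HSP70 family, had 2200, 2248 and 2380 CPM and 745, 716 and 646 CPM, and *CRELD2* was 5.08-fold lower. *HSPA5*, the chaperone BiP, had 3934, 4042 and 3220 CPM and 2086, 1772 and 2435 CPM without overlap, but its log2 fold change of -0.83 ± 0.16 stayed below the threshold. The somatic counterparts *CALR* (0.03), *PDIA6* (0.06) and *P4HB* (-0.17) were not DTGs. Another gene model described as a PDIA6 protein, ENSBGRG00000003611, which is not in the list, had 4, 8 and 6 counts in yak and 12739, 12512 and 7668 counts in cattle–yak, and reads of such copies may be shared with *PDIA6*.

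In polyamine metabolism, which supplies spermine and spermidine, 4 of 15 genes tested were lower (26.7%) and 2 were higher (13.3%). These shares were near the 27% and 17.1% of all genes. *OAZ3*, the antizyme of spermatids, had 113, 79.4 and 95.4 CPM in yak and 0.490, 0.129 and 0 CPM in cattle–yak, with a log2 fold change of -8.70 ± 0.60 (-10.44 without cattle–yak replicate 1). *OAZ1*, the antizyme of most cells, had 129, 134 and 118 CPM and 107, 98.5 and 98.6 CPM, 1.26-fold lower and not a DTG. *AZIN2*, an inhibitor of antizymes, fell by 3.97 and *ARG2*, the mitochondrial arginase, by 3.35 on the log2 scale. *ARG1*, the cytosolic arginase, had 6.54, 4.92 and 9.15 CPM in yak and no count in cattle–yak, at least 96.8-fold lower when 3 counts per library are taken as the limit of detection. *SAT2* was higher, with 36.7, 43.2 and 42.1 CPM and 159, 139 and 159 CPM, and *AMD1* passed the threshold at 1.02 ± 0.18 but lost the call under 6 alternatives, among them that without cattle–yak replicate 1. Spermidine synthase *SRM* (0.67) and spermine synthase *SMS* (0.10) were not DTGs.

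Among 23 phosphagen and adenylate kinase genes tested, 7 were lower (30.4%) and 5 were higher (21.7%), near the 27% and 17.1% of all genes. The lower ones included the adenylate kinases of the flagellum. *AK1* had 140, 103 and 113 CPM in yak and 2.10, 2.22 and 2.27 CPM in cattle–yak, and *AK8* had 137, 146 and 117 CPM and 3.21, 8.38 and 4.14 CPM. *AK7* and *AK9* fell by 3.19 and 4.23 on the log2 scale, and *AK9* had -5.21 without cattle–yak replicate 1. The mitochondrial isoforms *AK3* (0.32) and *AK4* (0.12) were not DTGs. Both enzymes of creatine synthesis were higher. *GATM*, which makes guanidinoacetate, had 116, 204 and 124 CPM and 433, 295 and 329 CPM, and *GAMT*, which methylates it to creatine, had 27.7, 27.0 and 21.4 CPM and 53.2, 64.4 and 70.5 CPM. The brain-type creatine kinase *CKB* was 2.14-fold higher, and the creatine transporter *SLC6A8* (0.40) was not a DTG.

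Of 24 genes of germ cell lipids tested, 9 were lower (37.5%) and 1 was higher (4.17%), against 27% and 17.1% of all genes. *CERS3*, the ceramide synthase of very long chains, had 179, 174 and 239 CPM in yak and 6.17, 2.79 and 1.58 CPM in cattle–yak, *LIPE*, the hormone-sensitive lipase, had 84.8, 83.8 and 74.5 CPM and 5.15, 4.78 and 6.03 CPM, and *ACSL6*, an acyl-CoA synthetase of polyunsaturated fatty acids, had 287, 257 and 293 CPM and 48.4, 45.9 and 53.4 CPM. The groups of each were separate. The enzymes of ether lipids *AGPS* (0.13) and *GNPAT* (-0.92) and of polyunsaturated fatty acids *FADS2* (0.54) and *ELOVL5* (0.62) were not DTGs. *PAFAH1B2*, a catalytic subunit of platelet-activating factor acetylhydrolase, was 2.13-fold higher.

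Most genes of nuclear transport did not reach the thresholds. Of 33 tested, 25 were not DTGs, 6 were lower (18.2%) and 2 were higher (6.06%), against 27% and 17.1% of all genes. *NUP210L*, a testis paralogue of a pore membrane protein, had 158, 148.3 and 133 CPM in yak and 21.9, 9.25 and 11.5 CPM in cattle–yak, whereas its common form *NUP210* had a log2 fold change of 0.05. The histone importer *IPO4* had 213, 227 and 248 CPM and 65.6, 55.8 and 62.4 CPM. *NXT2*, a cofactor of mRNA export, rose from 41.1, 40.5 and 43.0 CPM to 165, 153 and 170 CPM.

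Germ cells replace several widely used proteins with their own paralogues, often because the common gene lies on the X chromosome, which is silenced in meiosis. Both forms were tested in 30 of 44 such pairs, and levels were compared between forms as FPKM, which divides by gene length. The germ cell form was lower in 24 of the 30 pairs and higher in none, against 27% and 17.1% of all genes. Of 29 different common forms, 13 were higher, 3 were lower and 13 were not DTGs. The ratio of germ cell over common form was lower in cattle–yak without overlap in 27 pairs, overlapped in 2 and was higher in 1. Of all single genes tested, 36.5% were lower without overlap, and ratios of other gene pairs were not computed. The germ cell form had the higher mean FPKM in 12 pairs in yak and in 4 pairs in cattle–yak.

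In glycolysis, *PGK2*, the phosphoglycerate kinase of spermatids, had 183, 139 and 186 FPKM in yak and 2.49, 1.31 and 0.51 FPKM in cattle–yak. Its X-linked common form *PGK1* had 47.2, 38.9 and 41.6 FPKM in yak and 243, 217 and 220 FPKM in cattle–yak. The forms thus exchanged order, with log2 fold changes of -6.82 for *PGK2* (-7.54 without cattle–yak replicate 1) and 2.42 for *PGK1*. The subunit of pyruvate dehydrogenase did the same. *PDHA2* had 191, 117 and 184 FPKM in yak and 1.40, 1.16 and 0.24 FPKM in cattle–yak, and the X-linked *PDHA1* had 25.97, 21.1 and 25.1 FPKM in yak and 159, 135 and 134 FPKM in cattle–yak. *CETN1* and *CETN2*, centrins of the centriole, also exchanged order, with mean FPKM of 657 and 97.9 in yak and 8.13 and 270 in cattle–yak.

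In other pairs the germ cell form fell and the common form was not a DTG. Glycerol kinase *GK2* had 149, 142 and 139 FPKM in yak and 1.08, 1.03 and 0.28 FPKM in cattle–yak, and the common form *GK* had 0.14 to 0.48 FPKM, with a log2 fold change of 0.90 that became a call, at 1.81, without yak replicate 3. The glucose transporter *SLC2A3* had 540, 388 and 659 FPKM in yak and 22.9, 35.2 and 16.7 FPKM in cattle–yak, while *SLC2A1* had 20.6, 29.3 and 19.7 FPKM and 17.3, 22.1 and 21.6 FPKM. Among the thioredoxins the common form rose. *TXNDC2*, the sperm thioredoxin, had 6.32 to 10.8 FPKM in yak and was at 0 in each cattle–yak library, at least 43.8-fold lower, and *TXN* had a log2 fold change of 2.09. The exception in direction of the ratio was *PABPC1L* over *PABPC1*, where the common form was the one that fell. *PABPC1L* itself was low, with 0.26 to 1.11 FPKM in yak and 0.87 to 1.49 FPKM in cattle–yak. The other lower common forms, *BRD2* and *ACSL3*, each had a lower germ cell form as well. The mitochondrial carrier *SLC25A31* (-0.57) and the polyadenylation factor *CSTF2T* (0.42) were germ cell forms that were not DTGs.

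**Figure D3:**
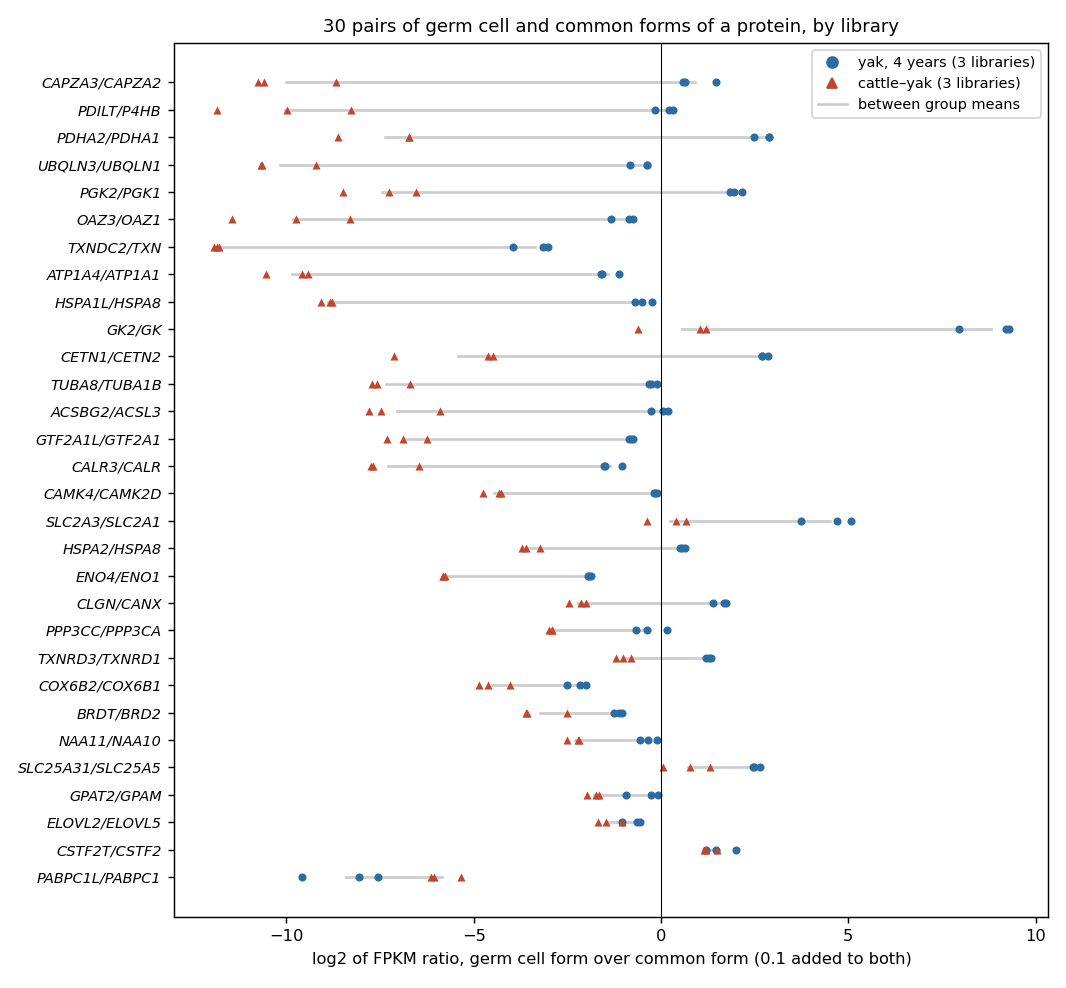
Log2 ratio of FPKM of the germ cell form over the common form (0.1 added to both) in each library for 30 pairs, ordered by the difference between group means. Circles are the 3 yak and triangles the 3 cattle–yak libraries. Triangles lie left of all circles in 27 pairs and right of them in 1, *PABPC1L*/*PABPC1*. Of all single genes tested, 36.5% were lower in cattle–yak without overlap.

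Annotation in the deposited table was used to describe functions without choosing genes by hand. Of tested genes with a KEGG pathway, 21.3% were higher and 17.5% lower. The 5 pathways with the highest share of higher DTGs, leaving out human diseases and those that the authors named, were all mitochondrial or linked to mitochondrial substrates. They were the citrate cycle (22 of 29), 2-oxocarboxylic acid metabolism (15 of 21), glyoxylate and dicarboxylate metabolism (19 of 27), degradation of valine, leucine and isoleucine (32 of 48) and fatty acid degradation (25 of 39). They share members. Of 121 different genes tested in these pathways, 72 were higher, 14 were lower and 35 were not DTGs, with a median log2 fold change of 1.19. The single genes of these pathways below were chosen after their values were seen. Not every mitochondrial pathway had a high share: in oxidative phosphorylation 25 of 129 genes were higher (19.4%) and 15 lower (11.6%). The ranking also depended on the minimum of 20 tested genes. With a minimum of 40, degradation of valine, leucine and isoleucine had the highest share. Carbon metabolism, biosynthesis of amino acids, cysteine and methionine metabolism and glycolysis followed it.

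Enzymes of successive steps of the citrate cycle were higher. *CS*, citrate synthase, which condenses acetyl-CoA with oxaloacetate, had 83.2, 72.7 and 90.4 CPM in yak and 236, 223 and 215 CPM in cattle–yak. *IDH3A*, the catalytic subunit of the NAD-dependent isocitrate dehydrogenase, had 37.1, 38.96 and 41.4 CPM and 153, 166 and 142 CPM. *DLD*, the lipoamide dehydrogenase that the cycle shares with pyruvate dehydrogenase and the branched-chain complex, had 110, 97.4 and 106 CPM and 522, 481 and 452 CPM. Each gene was higher in every cattle–yak library than in every yak library, by 2.74-fold for *CS* (adjusted p = 2.07e-05), 3.92-fold for *IDH3A* and 4.65-fold for *DLD*. The subunits of the oxoglutarate dehydrogenase complex *OGDH* (1.35 ± 0.12) and *DLST* (1.94 ± 0.13), the ligase subunit *SUCLA2* (1.90 ± 0.12), fumarase *FH* (1.76 ± 0.11) and malate dehydrogenase *MDH2* (1.53 ± 0.11) were higher too. The pathway as annotated also holds cytosolic enzymes, of which *IDH1*, *MDH1*, *ACO1* and *ACLY* were higher. Subunits were not uniform. *SDHB* (0.52 ± 0.13) and *PDHB* (-0.13 ± 0.15) were not DTGs, and the only lower DTG was *PDHA2*. The summed level of the 29 genes was 2232 to 2532 CPM in yak and 5778 to 6241 CPM in cattle–yak.

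**Figure D4:**
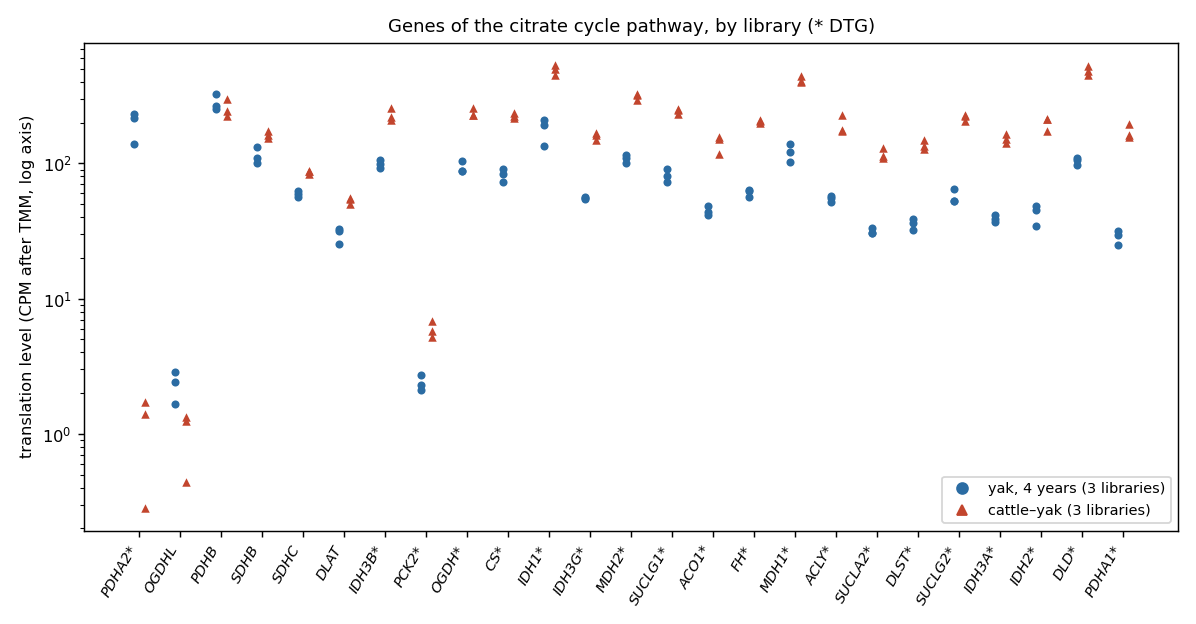
Translation level of genes of the citrate cycle pathway, as CPM after TMM scaling on a log axis, in the 3 yak (circles) and 3 cattle–yak libraries (triangles), ordered by log2 fold change, with DTGs marked by an asterisk. Cattle–yak libraries lie above yak libraries for every plotted gene except *PDHA2* and *OGDHL*, where they lie below, and *PDHB*, where the groups overlap.

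Catabolism of branched-chain amino acids followed the same direction. *BCAT2*, the mitochondrial transaminase of the first step, had 91.9, 130 and 87.3 CPM in yak and 447, 545 and 437 CPM in cattle–yak. *PCCB*, a subunit of propionyl-CoA carboxylase, had 76.4, 66.3 and 89.3 CPM and 431, 418 and 450 CPM, whereas its partner *PCCA* had 59.5, 42.7 and 60.6 CPM and 78.3, 61.6 and 63.1 CPM and was not a DTG. *ABAT*, GABA transaminase, was 4.40-fold higher. The 3 lower members included *OXCT2*, the testis form of the ketone body enzyme, with 270, 353 and 359 CPM in yak and 0.979, 0.129 and 0.0256 CPM in cattle–yak, highest in replicate 1, and *IL4I1*, an amino acid oxidase, with 383, 376 and 373 CPM and 11.9, 5.30 and 11.5 CPM. The somatic ketone body enzyme *OXCT1* had a log2 fold change of 0.69 ± 0.13 and was not a DTG. In fatty acid degradation, *CPT2*, which returns acyl groups to CoA inside mitochondria, had 23.3, 20.3 and 17.3 CPM and 73.4, 88.5 and 86.7 CPM, and *HADHB*, a subunit of the trifunctional protein, was 3.30-fold higher. *CPT1B*, the muscle-type carnitine transferase of the outer membrane, went the other way, with 160, 120 and 139 CPM in yak and 35.6, 32.3 and 36.8 CPM in cattle–yak. The summed levels of the pathways were 2975 to 3095 CPM and 6481 to 7480 CPM for branched-chain amino acids and 2433 to 2695 CPM and 4638 to 5141 CPM for fatty acids.

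The pathways with the highest share of lower DTGs were taste transduction (17 of 36), olfactory transduction (22 of 50), ABC transporters (19 of 44), retinol metabolism (12 of 29) and neuroactive ligand-receptor interaction (54 of 146). Their counts depended on low genes, and limma on log2(FPKM + 1) called as few as 9, 9, 14, 7 and 23. Of genes with a cellular component, 19.4% were higher and 19.1% lower. The components with the highest share of lower DTGs were the acrosomal vesicle (26 of 35), the dynein complex (12 of 20), the axoneme (26 of 51), the centriole (38 of 80) and the ciliary transition zone (10 of 25). Those with the highest share of higher DTGs were the intercalated disc (11 of 24), filopodium (14 of 31), adherens junction between cells (17 of 38), sarcolemma (15 of 36) and brush border (14 of 34). Among transcription factor families, for which 19.1% of annotated genes were higher and 21.4% lower, heat shock factors had the highest share of lower DTGs (7 of 11) and ETS factors the highest share of higher DTGs (8 of 22). The 7 lower heat shock factors are gene models without a symbol that resemble sex-linked copies, whose reads may be shared among copies, so their levels are uncertain. The heat shock factors with a symbol, *HSF1* (0.22 ± 0.14), *HSF2* (0.83 ± 0.16) and *HSF4* (0.60 ± 0.29), were not DTGs.

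The interferon response had the highest share of higher DTGs among the function lists, 18 of 34 tested (52.9%, against 17.1% of all genes), and no lower DTG. *IRF1*, a transcription factor induced by interferon-γ, had 23.2, 23.3 and 17.9 CPM in yak and 133, 141 and 128 CPM in cattle–yak. *IFI6*, an interferon-induced protein of the endoplasmic reticulum and mitochondria, had 27.5, 27.4 and 19.99 CPM and 69.6, 252 and 224 CPM. The groups did not overlap, and the log2 fold changes were 2.64 ± 0.14 (adjusted p = 2.21e-06) and 2.86 ± 0.44. The editing enzyme *ADAR* was 3.11-fold higher, and *ISG15* (1.75 ± 0.45) and *MX1* (1.57 ± 0.39) rose with a wider spread, to 1.09 and 1.13 without cattle–yak replicate 3. The receptors *IFNAR1* (0.11), *IFNAR2* (0.33), *IFNGR1* (-0.15) and *IFNGR2* (0.09) and the kinases *JAK1* (0.75) and *TYK2* (0.39) were not DTGs. Nor were other induced genes, *OAS2* (-0.15), *IFIT2* (-0.04), *IFIT3* (-0.05), *RSAD2* (0.55) and *CXCL10* (-0.62), and *IFIH1*, a sensor of double-stranded RNA, had 25.4, 30.4 and 26.6 CPM in yak and 13.4, 17.1 and 15.7 CPM in cattle–yak.

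Of 19 genes of antigen processing tested, 4 were higher (21.1%, near the 17.1% of all genes) and none was lower (against 27%). The 4 were subunits of the immunoproteasome and its activator. *PSMB8* had 18.5, 18.9 and 19.4 CPM in yak and 48.7, 57.9 and 58.2 CPM in cattle–yak, *PSMB9* was 2.12-fold and *PSME1* 2.36-fold higher, and *PSME2* had a log2 fold change of 1.45. The third catalytic subunit *PSMB10* (0.02), the invariant chain *CD74* (0.36) and *CIITA* (-0.29), the regulator of class II genes, were not DTGs. Lymphocyte markers summed to 42 to 51 CPM in yak and 22 to 34 CPM in cattle–yak, and overlapped without *CD79A*, a B cell receptor subunit, and macrophage markers overlapped as given above.

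Cell cycle inhibitors and stress-induced genes of growth arrest and cell death were higher in 14 of 30 members tested (46.7%) and lower in 4. *CDKN1A*, the inhibitor p21 of cyclin-dependent kinases, had 36.4, 38.7 and 34.3 CPM in yak and 94.2, 114 and 114 CPM in cattle–yak. *GADD45A*, a stress-induced growth arrest gene, had 21.2, 27.4 and 18.9 CPM and 80.0, 65.4 and 75.7 CPM. In both, all cattle–yak libraries were above all yak libraries, and the log2 fold changes were 1.56 ± 0.13 (adjusted p = 1.67e-05) and 1.71 ± 0.17. The related inhibitors *CDKN1B* (1.47 ± 0.11) and *CDKN1C* (2.04 ± 0.30) rose as well, while inhibitors of the INK4 family fell, *CDKN2C* from 9.01, 6.96 and 9.87 CPM to 2.21, 3.08 and 2.48 CPM and *CDKN2D* from 36.3, 20.6 and 23.1 CPM to 10.6, 9.18 and 14.03 CPM, although *CDKN2D* lost the call without yak replicate 1. *MDM2*, a ubiquitin ligase of the stress response, had 34.4, 35.4 and 34.4 CPM and 58.2, 58.4 and 61.8 CPM and did not reach the fold threshold. The cell death genes *BBC3* (-0.32) and *FAS* (-0.15) were not DTGs.

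Immediate early genes were higher in 13 of 27 members tested (48.1%) and lower in 2. *EGR1*, a transcription factor induced by growth factors, had 1.72, 2.16 and 3.97 CPM in yak and 32.6, 18.3 and 15.5 CPM in cattle–yak, and *JUN*, a subunit of AP-1, had 18.1, 18.3 and 13.4 CPM and 74.0, 62.1 and 53.4 CPM. *FOS*, its partner, had 1.32, 2.49 and 1.81 CPM and 59.6, 7.11 and 7.23 CPM. The level of *FOS* was highest in cattle–yak replicate 1, and its log2 fold change of 3.72 ± 0.90 was 1.94 without that library. *NR4A2*, an orphan nuclear receptor, went the other way with 8.38, 14.2 and 9.15 CPM and 0.999, 0.569 and 0.716 CPM, and *KLF4*, a factor of postmeiotic germ cells, had 17.6, 15.9 and 15.8 CPM and 5.62, 7.06 and 6.18 CPM. Immediate early genes are known to respond quickly to handling of tissue. The groups differed in how the testes were obtained, so for these genes genotype and sampling cannot be told apart.

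In the insulin-like growth factor (IGF) system 7 of 23 members tested were higher (30.4%) and 2 were lower (8.70%), against 17.1% and 27% of all genes. Of the 2 lower ones, *IGFBPL1* lost its call without yak replicate 2 or 3. The changes lay mostly in binding proteins, proteases and adaptors. *IGFBP2*, a secreted binding protein, had 418, 629 and 449 CPM in yak and 1164, 1463 and 1326 CPM in cattle–yak, and *IGFBP7* had 304, 393 and 245 CPM and 686, 941 and 765 CPM. *PAPPA*, a protease that frees IGF from binding proteins, had 2.30, 2.60 and 0.602 CPM and 16.3, 11.1 and 8.87 CPM, whereas its homologue *PAPPA2* had 2.01, 1.55 and 1.63 CPM and 0.176, 0.207 and 0.102 CPM. The adaptors *IRS1* (1.57 ± 0.31) and *IRS2* (1.68 ± 0.21) were higher. The receptor *IGF1R* had 200, 226 and 199 CPM and 174, 198 and 199 CPM with overlap, and neither *INSR* (0.32) nor *IGF2R* (0.69) was a DTG.

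The TGF-β superfamily had 6 higher (13.95%) and 2 lower DTGs (4.65%) among 43 members tested, against 17.1% and 27% of all genes. The other 35 were not DTGs, and the share of higher DTGs did not exceed that of all genes. *ID4*, an inhibitor of differentiation that marks spermatogonial stem cells and is a BMP target, had 22.7, 26.4 and 25.2 CPM in yak and 115, 110 and 105 CPM in cattle–yak. *LTBP4*, which anchors latent TGF-β in the matrix, had 102, 124 and 95.7 CPM and 284, 512 and 322 CPM, and the activin antagonist *FSTL3* had 10.7, 19.5 and 11.7 CPM and 25.2, 61.0 and 47.9 CPM. The inhibin subunits *INHA* (561, 772 and 555 CPM and 820, 1055 and 1032 CPM) and *INHBA* (log2 fold change 0.51) and the signal transducers *SMAD2* (0.40), *SMAD3* (-0.02) and *SMAD4* (0.63) were not DTGs, while the inhibitory *SMAD7* was 3.17-fold higher. *BMP8A*, a germ cell ligand, was lower, with 0.804, 1.16 and 1.26 CPM and 0.0979, 0.0776 and 0.0767 CPM, and the other lower member, *BMP7*, lost its call without cattle–yak replicate 1 or 3 and without yak replicate 1 or 2.

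In the WNT pathway 10 of 52 members tested were higher (19.2%) and 7 were lower (13.5%), against 17.1% and 27% of all genes. The secreted Dickkopf family moved both ways. *DKKL1*, its germ cell member, had 4874, 4422 and 3527 CPM in yak and 147, 60.4 and 65.9 CPM in cattle–yak, whereas *DKK3* had 144, 195 and 165 CPM and 925, 1197 and 759 CPM, and *DKK1* had a log2 fold change of 2.55. *LEF1*, a nuclear partner of β-catenin, fell from 28.3, 25.5 and 25.9 CPM to 3.17, 5.64 and 4.34 CPM. β-Catenin itself, *CTNNB1*, had 227, 189 and 178 CPM and 344, 316 and 314 CPM and did not reach the fold threshold, nor did *AXIN2* (0.72), a common target of the pathway.

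Of 48 paracrine factors and receptors tested, 13 were higher (27.1%) and 5 lower (10.4%), against 17.1% and 27% of all genes. Without cattle–yak replicate 2, 8 were higher. *PTN*, the growth factor pleiotrophin, had 400, 527 and 366 CPM in yak and 1376, 1332 and 1063 CPM in cattle–yak. *KITLG*, the Sertoli cell ligand of the receptor KIT, had 3.96, 5.53 and 7.04 CPM and 17.02, 21.4 and 18.3 CPM, and *CXCL12*, a chemokine of the stem cell niche, had 12.8, 9.95 and 5.72 CPM and 29.4, 52.2 and 27.9 CPM. The receptor *KIT* had 139, 112 and 118.7 CPM and 129, 141 and 160 CPM with overlap, and *CXCR4*, the receptor of CXCL12, had a log2 fold change of -1.25, a call that was lost without yak replicate 1. *AREG*, a ligand of the EGF receptor, had 79.1, 65.6 and 50.1 CPM in yak and 0.784, 0.0517 and 0.128 CPM in cattle–yak, -7.52 ± 0.64 on the log2 scale and -9.42 without cattle–yak replicate 1. *FGF9* fell by 2.50 on the log2 scale, and the FGF receptors *FGFR1* (1.68) and *FGFR2* (1.57) were higher.

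**Figure D5:**
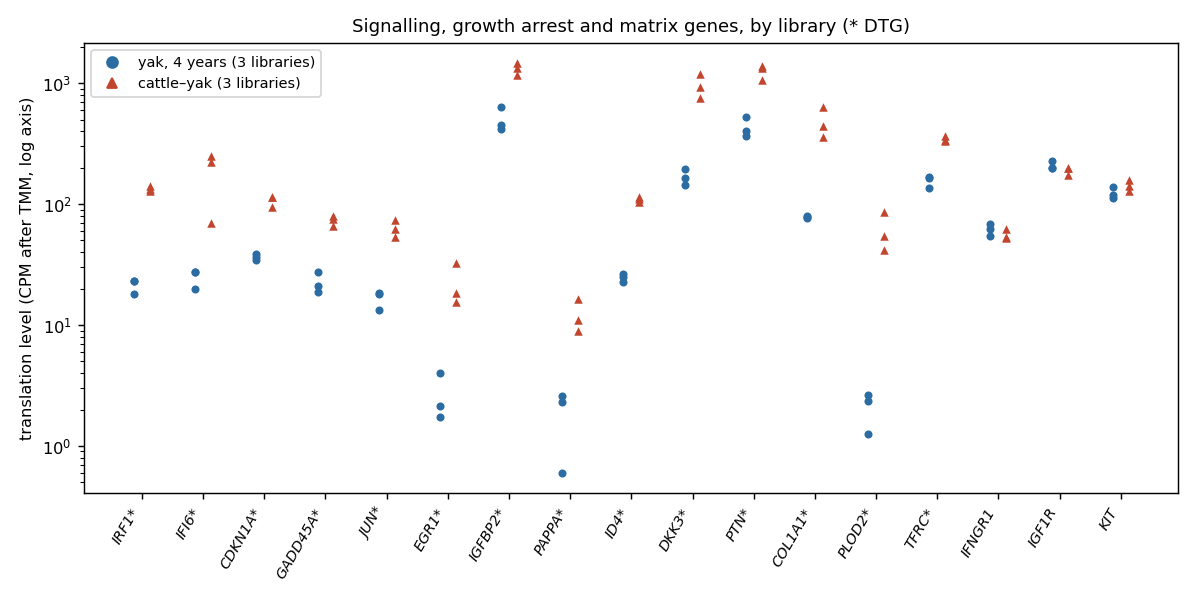
Translation level of 17 genes of the interferon, growth arrest, immediate early, IGF, TGF-β, WNT, paracrine, collagen and iron lists, as CPM after TMM scaling on a log axis, in the 3 yak (circles) and 3 cattle–yak libraries (triangles), with DTGs marked by an asterisk. The genes were chosen by hand, and no lower DTG of these lists is plotted. The cattle–yak libraries lie above the yak libraries for 14 genes, as they do for 34.9% of all genes tested. The groups overlap for *IFNGR1*, *IGF1R* and *KIT*, which were not DTGs.

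Collagens, small proteoglycans and collagen-modifying enzymes were higher in 15 of 41 members tested (36.6%) and lower in 2, of which 1, *ADAMTS14*, lost its call without cattle–yak replicate 1 or 2 and without yak replicate 2 or 3. *COL1A1* had 76.9, 79.2 and 77.6 CPM in yak and 357, 641 and 444 CPM in cattle–yak, and *COL3A1* had 94.4, 78.1 and 80.3 CPM and 403, 619 and 432 CPM. *PLOD2*, the lysyl hydroxylase that sets the type of collagen cross-link, had 2.35, 2.65 and 1.26 CPM and 85.2, 54.2 and 41.9 CPM, the largest increase of any member of the function lists at 4.85 ± 0.36. The prolyl 3-hydroxylases moved apart, with *P3H3* 7.24-fold higher and *P3H1* 2.38-fold lower. Without yak replicate 2 the log2 fold change of *P3H3* was 3.62 in place of 2.86. Collagen VI chains *COL6A1* (0.89 ± 0.17) and *COL6A2* (0.44), the cross-linking oxidase *LOX* (0.84) and the prolyl 4-hydroxylases *P4HA1* (-0.26) and *P4HA2* (-0.11) were not DTGs. Several of these collagens are also among the fibroblast markers, whose sum moved with them.

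Of 43 complement and clotting genes tested, 8 were higher and 7 lower, shares of 18.6% and 16.3% against 17.1% and 27% of all genes. *ANXA2*, a receptor of plasminogen activation, had 35.1, 26.7 and 27.6 CPM in yak and 189, 163 and 154 CPM in cattle–yak, and *PLAT*, tissue plasminogen activator, had 46.1, 61.3 and 25.8 CPM and 213, 230 and 254 CPM. *C6*, a component of the membrane attack complex, had 6.08, 6.80 and 6.02 CPM and 0.118, 0.0776 and 0.0511 CPM, and *VWF*, the von Willebrand factor of endothelial cells, had 54.9, 54.6 and 35.9 CPM and 10.2, 11.9 and 5.62 CPM. With limma on log2(FPKM + 1), 3 members in place of 7 were lower.

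Of 27 genes of iron handling tested, 6 were higher (22.2%) and 2 lower (7.41%), against 17.1% and 27% of all genes. *FTMT*, mitochondrial ferritin, had 51.9, 54.4 and 30.9 CPM in yak and 0, 0 and 0.383 CPM in cattle–yak. *TFRC*, the transferrin receptor, had 136, 168 and 164 CPM and 367, 333 and 341 CPM. *ACO1*, the cytosolic aconitase that doubles as an iron regulatory protein, had 48.4, 41.6 and 43.7 CPM and 153, 118 and 157 CPM, and *NCOA4*, which delivers ferritin to lysosomes, had 41.2, 33.8 and 35.0 CPM and 124, 123 and 116 CPM. These 3 rose in every cattle–yak library, by 1.15 ± 0.13, 1.68 ± 0.15 and 1.72 ± 0.12 on the log2 scale. Transferrin, *TF*, overlapped between groups (0.85 ± 0.28), and the second iron regulatory protein *IREB2* (-0.25) and the iron exporter *SLC40A1* (-0.04) were not DTGs.

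Among the DTGs with a symbol, the most abundant by mean FPKM, apart from those already given, were for the lower direction *TUBA3D*, a testis tubulin, with mean FPKM of 1562 in yak and 272 in cattle–yak, *TMEM190*, a sperm membrane protein, with 1622 and 9, *GPX4*, the phospholipid hydroperoxide glutathione peroxidase of the sperm midpiece, with 1332 and 273, *SPINT2*, a protease inhibitor, with 1268 and 440, and *RPN2*, a subunit of the oligosaccharyltransferase, with 946 and 378. The higher ones were led by *SPARC*, a matrix glycoprotein, with 4239 and 9716, the actins *ACTB* with 1740 and 6352 and *ACTG1* with 1100 and 2408, *TMSB10*, which binds actin monomers, with 1128 and 4508, *BUD23*, an rRNA methyltransferase, with 1162 and 3355, and *PTMA*, prothymosin-α, with 1332 and 2885. Some DTGs without a symbol were more abundant, such as ENSBGRG00000015704, an uncharacterized protein, with 25760 and 1636, and ENSBGRG00000007655, described as probable cystatin-15, with 5149 and 11788. Near-identical copies of actin, tubulin, thymosin and prothymosin genes can share reads, so the values of these genes are uncertain. Of genes with a symbol 18.5% were higher and 21.7% lower, and of genes without a symbol 13.3% and 40.7%, so that the excess of lower DTGs lay mainly in gene models without a name. Among all lower DTGs, 667 are models described as endonuclease-reverse transcriptase, repeats of one another whose single counts are uncertain.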

How the data were processed

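Ribo-seq reads of 12 testis libraries were trimmed with fastp, depleted of rRNA and other small RNA with Bowtie2 and BLAST, aligned to the yak genome with STAR and counted over open reading frames with RSEM by the authors. The deposited count of each gene is a whole number without normalization, and the FPKM deposited by the authors divides it by gene length and library total. The authors' own fold changes, p-values and group means in the deposited tables were not used. Groups were those of the labels. With 1 library per animal, variation between animals was not separated from that of library preparation. The cattle–yak and yak libraries of 4 years alone entered the test: filterByExpr, TMM scaling and the quasi-likelihood test of edgeR 4.0.16 in R 4.3.3, with p-values adjusted by Benjamini-Hochberg over all genes tested. Each SE was obtained by dividing the absolute log2 fold change by the root of its F statistic, which is an approximation. Median totals were 17796018 counts in yak and 38616961 in cattle–yak. The test was tested on simulated data before use. Other summaries used Python 3.11.15, pandas 2.3.3 and numpy 2.4.6, and figures used matplotlib 3.10.9.

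The members, the 21 function lists, the 14 marker lists and the tests were chosen with earlier results of these data known. The tables name 13662 of 20965 genes by symbol, and 93 list members were matched through their description. Named genes were the 10 most abundant DTGs with a symbol in each direction by FPKM, the 3 most abundant called members in each direction and 2 others of each function list, the paralogue pairs, the markers, and members of 4 lists named for their role. Genes that the study's text names were left out of the 10. Other genes were chosen after their values were seen. Pathways and components needed 20 tested genes and transcription factor families 10. The alternatives were DESeq2 1.42.0, limma 3.58.1 on log2(FPKM + 1) and log2(FPKM + 0.1), 3 other scalings, no filter, all 12 libraries in 1 fit, a block for the replicate number and leaving out each library. Translation efficiency, positions and sequences were not analysed here. Some members counted in the lists are not reported here by name. Sums of lists with each member left out in turn were added after seeing the data.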

Additional observations from a re-analysis of the deposited data

How the results depend on the processing

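The alternatives gave 2231 to 3121 higher and 3586 to 4754 lower DTGs, against 2814 and 4453, and in no alternative was a DTG called in the opposite direction. DESeq2 gave 2695 higher and 4754 lower DTGs, and limma on log2(FPKM + 1) gave 2231 and 3586. Leaving out each library in turn gave 2673 to 3121 higher and 4126 to 4438 lower DTGs. With the replicate number as a block there were 2763 higher and 4384 lower DTGs, of which 2717 and 4319 were among those without the block. Same-numbered libraries deviated together only weakly, with correlations of 0.036, 0.071 and 0.032, so the numbers were not taken as pairs. No scaling moved the median of all genes by more than 0.1 on the log2 scale.

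Counts of called members that moved by over 1.5 times were those of lower complement genes (7 to 3), higher WNT genes (10 to 6) and higher paracrine genes (13 to 7) with limma on log2(FPKM + 1), of higher paracrine genes (13 to 8) without cattle–yak replicate 2, of lower spermatocyte markers (8 to 5) with all 12 libraries in 1 fit, and of higher Sertoli markers (7 to 11) without yak replicate 2. Of 462 genes followed, 312 were DTGs. Of these, 54 lost the call in at least 1 alternative, and 28 other genes gained one. Among those named, *PAPPA2*, *BMP8A* and *ATP2B2* lost it with limma on log2(FPKM + 1), and *P3H1* with all 12 libraries in 1 fit. The causes were not tested. The yak libraries, with fewer counts than the cattle–yak libraries, limit the precision of low genes, and a gene without counts in a group has only a bound.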

Other observations

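The younger yak libraries, which entered none of the tests, give a scale for the levels in cattle–yak. They are given here as summed CPM without TMM scaling, with the lowest and highest library. The citrate cycle genes summed to 2360 to 3737 CPM at 6 months, 3013 to 3964 CPM at 18 months and 2261 to 2479 CPM at 4 years in yak, and to 5883 to 6056 CPM in cattle–yak, above every yak library of any age. Genes of branched-chain amino acid degradation summed to 3453 to 4680, 3491 to 4235 and 3014 to 3050 CPM in yak and to 6598 to 7258 CPM in cattle–yak, also above every yak library. Of the 21 function lists, the immediate early genes (697 to 833 CPM in cattle–yak, at most 639 CPM in yak) were above every yak library whichever member was left out. The cell cycle inhibitors and growth arrest genes (960 to 1119 CPM, at most 933 CPM) and iron handling (3566 to 4582 CPM, at most 3025 CPM) were above every yak library too, but not without *CDKN1A* (869 to 1004 CPM, at most 898 CPM) and not without *LTF*, lactoferrin (2930 to 3493 CPM, at most 3003 CPM). The 2 lists that summed below every yak library did so through single genes. The WNT pathway summed to 1886 to 2358 CPM in cattle–yak and at least 2666 CPM in yak, but without *DKKL1* it lay within the yak range and, on the TMM scale, was 1786 to 2293 CPM in cattle–yak against 1005 to 1099 CPM in yak at 4 years. The testis ADAM proteins and serine proteases summed to 1688 to 1861 CPM, nearly all of it the protease inhibitor *SERPINA5*, and to 118 to 200.1 CPM without it, against 68.8 CPM in the lowest younger yak library. The median of the interferon list was 1832 CPM at 6 months, 1413 CPM at 18 months and 829 CPM at 4 years in yak and 1855 CPM in cattle–yak. The collagen list had medians of 19580, 7202 and 3524 CPM in yak and 7058 CPM in cattle–yak, and the TGF-β list 10235, 5161 and 1436 CPM in yak and 2529 CPM in cattle–yak. Median sums of Sertoli cell markers were 25294, 28010 and 9754 CPM in yak and 18930 CPM in cattle–yak.

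The 43 genes higher by 6 or more on the log2 scale in cattle–yak held no gene with a symbol, whereas 389 of 691 genes lower by as much had one. Of the 43 genes, 33 had no count in the yak libraries of 4 years and 8 had none in any of the 9 yak libraries, while 17 had at least 10 counts in some younger yak library. Most of their descriptions name widely used proteins, such as histone H4, elongation factor 1-alpha 1, tubulin alpha-1A and citrate synthase, so reads may be shared with near-identical copies and their values are uncertain. The gene model ENSBGRG00000003611, described as protein disulfide isomerase A6, had 4801, 6022 and 5 counts at 6 months, 5, 9 and 3 at 18 months, 4, 8 and 6 at 4 years and 12739, 12512 and 7668 in cattle–yak. It was thus high in some animals and near 0 in others of the same group. ENSBGRG00000006818, described as LZTFL1, had no count in any yak library and 1598, 606 and 736 counts in cattle–yak.

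Gene models described as endonuclease-reverse transcriptase, the product of LINE retrotransposons, went the other way. Of 910 tested, 667 were lower (73.3%) and 2 were higher in cattle–yak. Together they took 0.586%, 0.740% and 0.998% of counts in yak at 4 years and 0.207%, 0.164% and 0.236% in cattle–yak, against 0.1003% to 0.162% at 6 months and 0.174% to 0.558% at 18 months. They are repeats of one another, so that counts of single models are uncertain.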
